A study of Homo sapiens with 12 samples.

Results

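The genes described here are 10 chaperones and folding factors of the endoplasmic reticulum (ER): HSPA5, HSP90B1, CALR, CANX, PDIA3, PDIA4, PDIA6, CRELD2, SDF2L1 and DNAJB9. They were taken by symbol from a deposited table of 26475 genes, all 10 symbols were found, and all 10 were among the 15443 genes that passed the filter on low counts. RNA came from A375 cells, an established human melanoma line with a mutation in BRAF, kept for 24 h with the solvent DMSO, with XL413 or GSK343 at 1 µM, or with both compounds at that dose. XL413 blocks CDC7, a kinase needed to fire replication origins, and GSK343 blocks EZH2, which methylates histone H3 as part of a Polycomb complex. Each of the 4 groups had 3 libraries that the labels call biological replicates, all cells were the same line, and whether the compound groups held the same amount of DMSO is not given in the sources used here. Poly-A RNA was sequenced on an Illumina HiSeq 4000 instrument, and values are estimated read counts from RSEM, given below as CPM, the count scaled to a fixed library total after normalisation between libraries.

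Proteins that enter the ER are folded by chaperones in its lumen. BiP, the product of HSPA5, is an Hsp70 that binds exposed hydrophobic stretches and also holds the stress sensors IRE1, PERK and ATF6 inactive. When unfolded protein builds up, the sensors start the unfolded protein response: IRE1 splices the mRNA of XBP1, ATF6 is cut to a transcription factor, and PERK slows translation and raises ATF4. ATF6 and XBP1 act through the ER stress response element (ERSE), in which a CCAAT box for the factor NF-Y stands at a fixed distance from the sequence CCACG, and the chaperone genes are its best known targets.

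Matches to that element in the promoters of these genes are shown here, a sequence feature that most of those searched have. The genes were chosen as chaperones of the unfolded protein response, the best known targets of this element. The shares below are therefore not independent of that choice. RefSeq promoter windows (GRCh38.p14, 250 bases before to 50 bases after the start) were given for 9 of the 10 genes, all except PDIA3. An ERSE was searched on both strands as CCAAT, 9 bases of any kind and CCACG. It was found for 6 of the 9 genes (66.7%), against 25 of the 27305 genes with a window (0.0916%). Its shorter form ERSE-II, searched as ATTGG, 1 base and CCACG, was found in SDF2L1, against 0.0696% of all genes. The windows of PDIA4 and DNAJB9 held neither form. Each stretch below runs 5′ to 3′ on the strand of its gene with 5 bases on either side. Capitals mark the CCAAT and CCACG parts or, where an ERSE lies in the other orientation, CGTGG and ATTGG. The ERSE-II of SDF2L1 also lies in the other orientation, and its capitals are CGTGG and CCAAT.
HSPA5: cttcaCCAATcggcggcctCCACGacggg
HSP90B1, first match: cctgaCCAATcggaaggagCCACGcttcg
HSP90B1, other match: gggtgCGTGGtgcggcgcgATTGGtgggt
CALR: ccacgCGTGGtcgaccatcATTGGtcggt
CANX: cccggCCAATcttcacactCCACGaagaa
PDIA6: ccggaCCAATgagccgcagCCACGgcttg
CRELD2: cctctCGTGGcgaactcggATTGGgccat
SDF2L1, ERSE-II: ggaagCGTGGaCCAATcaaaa

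The HSPA5 stretch lies at chr9:125241386-125241414 on the minus strand, with the first base of the element at position −66 from the RefSeq start. The HSP90B1 matches are at chr12:103930211-103930239 and chr12:103930316-103930344 on the plus strand. CALR has its match at chr19:12938379-12938407 and CANX at chr5:179698773-179698801, both on the plus strand, and PDIA6 at chr2:10812848-10812876 on the minus strand. The CRELD2 stretch is at chr22:49918549-49918577 and that of SDF2L1 at chr22:21642109-21642129, both on the plus strand. A CCAAT box, counted on either strand and also inside an ERSE or ERSE-II, stood in a window of 9 of 9 genes, against 39.7% of all genes. Genes with either form hold a CCAAT box by definition, so for them this is not a separate result. The core TGACGTG, known from XBP1 binding, was in 0 of 9 (2.4% of all genes), and TGATGCAAT, a form of the element that ATF4 binds, in 0 of 9 (0.293%). These are matches of letters in a window of fixed length, not measured binding sites, and elements outside the window were not searched. Cytosolic and mitochondrial chaperones, a list of 21 genes used below for comparison, had an ERSE in 0 of the 20 genes with a window.

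The libraries held 31553205 to 39079931 estimated counts, and 18239 to 18551 genes had a count. SOX10, the transcription factor of the melanocyte lineage, had a median of 328 CPM, MITF 43.0 and VIM 2851, while the pigment genes PMEL, MLANA, TYR, DCT and TYRP1 had medians under 1 CPM over the libraries. The leukocyte gene PTPRC and the epithelial genes EPCAM and CDH1 stayed at or under 0.224 CPM in every library. CD68, listed with the leukocyte genes, had a median of 44.8 CPM. The epithelial genes KRT18 (median 568 CPM), KRT8 (50.1), KRT14 (21.6) and CLDN4 (10.1) and the collagen COL1A1 (90.8) were also present. A combination library, GSK343+XL413 replicate 2, stood apart: set against the mean of its 2 fellow libraries, its log2 CPM had an SD over genes of 0.277, and the same SD was 0.134 to 0.178 for the remaining 11.

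All 10 genes were expressed in every library, from 315 counts for DNAJB9 to 60013 for CALR in the lowest and highest cases. Per kb of transcript, the level over all 12 libraries was highest for CALR, the lectin calreticulin of the lumen, at 753 CPM per kb. HSP90B1, the ER member GRP94 of the Hsp90 family, followed at 342, HSPA5 at 220, CANX, the membrane-bound lectin calnexin, at 159 and PDIA6, a protein disulfide isomerase, at 149. PDIA3, the isomerase ERp57 that works with both lectins, was at 95.2 CPM per kb and PDIA4, the isomerase ERp72, at 67.3. The co-chaperones were lower: SDF2L1, a partner of the J-protein ERdj3, was at 36.0 CPM per kb, CRELD2, a stress-induced factor with repeats like those of epidermal growth factor, at 16.9, and DNAJB9, the J-protein ERdj4 that acts on BiP, at 3.98. The order of the genes by group mean per kb was the same in each of the 4 groups, though CANX and PDIA6 trade places in GSK343+XL413 replicate 2. Together the 10 genes took 0.489 to 0.503% of all counts of a library.

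**Figure D1:**
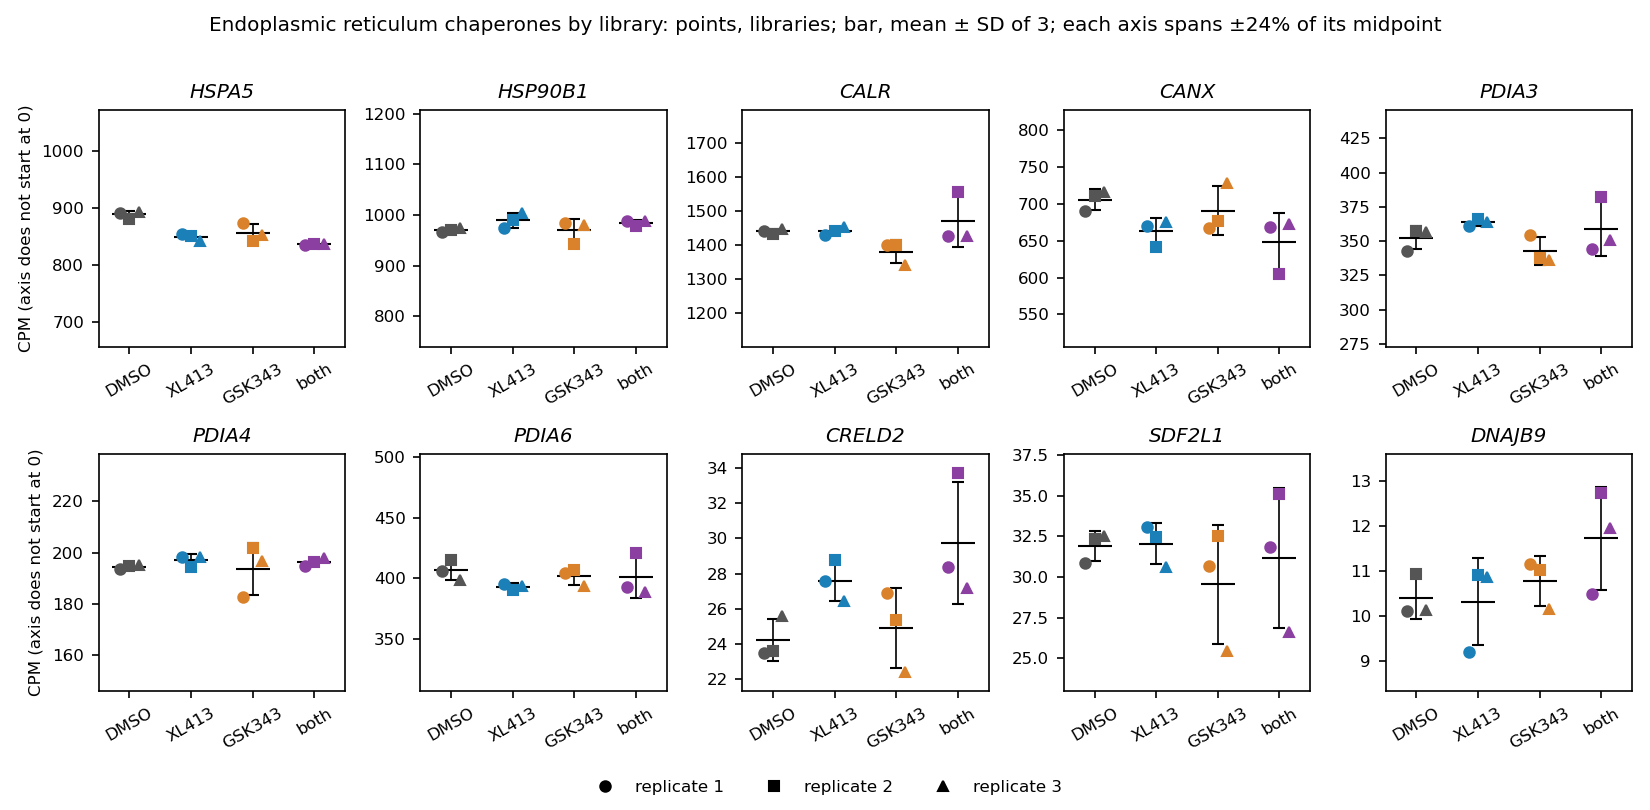
CPM of the 10 ER chaperone genes (vertical axes, which do not start at 0) in DMSO, XL413, GSK343 and the combination; points are libraries with the symbol giving the replicate, and bars are the mean ± SD of 3. HSPA5 libraries of the combination lie at 836 to 838 CPM, under the 882 to 894 of DMSO, and CRELD2 spans 22.4 to 33.7 CPM over all libraries.

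Differences between the groups were small. The ratio of the highest to the lowest group mean was 1.02 for PDIA4 and HSP90B1, 1.06 for HSPA5, CALR and PDIA3, 1.09 for CANX, 1.14 for DNAJB9 and 1.23 for CRELD2, with PDIA6 (1.03) and SDF2L1 (1.08) within that range. Each gene was tested in 1 fit over all genes with edgeR's quasi-likelihood test, and a gene is said to have changed where its Benjamini-Hochberg adjusted p was under 0.05. By this rule 1 of the 10 genes changed in 1 of the comparisons, CRELD2 with the combination against DMSO, and that call was lost when some single libraries were omitted. Each call was refitted 12 times with 1 library omitted each time, and these fits are called refits below. A value in brackets beside a lost call is the adjusted p of edgeR's test in that refit or setting, and "up to" or "at most" marks the highest over the refits. In bulk RNA, fewer cells with a transcript and less of it per cell cannot be told apart.

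XL413 against DMSO asked what blocking CDC7 alone did to these mRNAs. None of the 10 genes was called, where 0.427% of all tested genes were. HSPA5 and CRELD2, 2 of the 10, had an unadjusted p under 0.05, where 13.7% of all tested genes had. HSPA5 was at 892, 882 and 894 CPM with DMSO and at 855, 852 and 843 CPM with XL413. All 3 XL413 libraries lay under all 3 DMSO libraries, and the log2 fold change was −0.065 ± 0.029 (SE; edgeR adjusted p = 0.337). CRELD2 went the other way, from 23.5, 23.6 and 25.6 CPM to 27.6, 28.8 and 26.4 CPM, again without overlap of the groups, at 0.19 ± 0.085 (edgeR adjusted p = 0.349). A fit of these 6 libraries alone called CRELD2 (edgeR adjusted p = 0.0329).

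Groups that did not overlap were found for 6 of the 10 genes with XL413, 3 higher and 3 lower, where 28.1% of all tested genes had such groups. HSP90B1 rested on a narrow gap, with 967, 971 and 973 CPM in DMSO and 973, 991 and 1003 CPM in XL413 (log2 fold change 0.028 ± 0.030). PDIA3 was at 343, 358 and 357 CPM against 361, 367 and 364 CPM with XL413 (0.045 ± 0.042). CANX was lower in each XL413 library, at 669.9, 641 and 676 CPM against 690.2, 711 and 716 CPM (−0.091 ± 0.047), and PDIA6 likewise, at 396, 390.2 and 394 CPM against 406, 415 and 399 CPM (−0.048 ± 0.037). The adjusted p of these 4 genes lay between 0.415 and 0.730. CALR, PDIA4, SDF2L1 and DNAJB9 had overlapping groups and estimates between −0.011 and 0.0197. Across the 10 genes the 95% intervals ran from 0.867-fold to 1.29-fold at their widest, so larger changes lie outside them. The median size of the log2 fold change was 0.036 for the 10 genes and 0.086 for all tested genes. Their median SE was 0.041 and 0.082, so these sizes are not set side by side at like precision.

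GSK343 against DMSO asked the same of EZH2 inhibition. It gave no call among the 10 genes either, where 1.17% of all tested genes were called. None of the 10 had an unadjusted p under 0.05, where 14.3% of all tested genes had. The libraries of HSPA5 were at 875, 843 and 854 CPM, all under those of DMSO, with a log2 fold change of −0.053 ± 0.029 (edgeR adjusted p = 0.437). CALR was at 1399.7, 1401 and 1342.5 CPM, against 1442, 1434 and 1449 CPM with DMSO (−0.062 ± 0.037, edgeR adjusted p = 0.488). These were the only genes of the 10 whose GSK343 and DMSO groups did not overlap, where 25.2% of all tested genes had such groups. GSK343 replicate 3 was the lowest library of its group for CALR, PDIA3, PDIA6, CRELD2, SDF2L1 and DNAJB9 and the highest for CANX. SDF2L1 showed this most, at 30.7, 32.5 and 25.4 CPM, against 30.9, 32.3 and 32.5 CPM with DMSO (−0.11 ± 0.097). The widest 95% intervals reached 0.80-fold for SDF2L1 and 1.18-fold for DNAJB9.

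**Figure D2:**
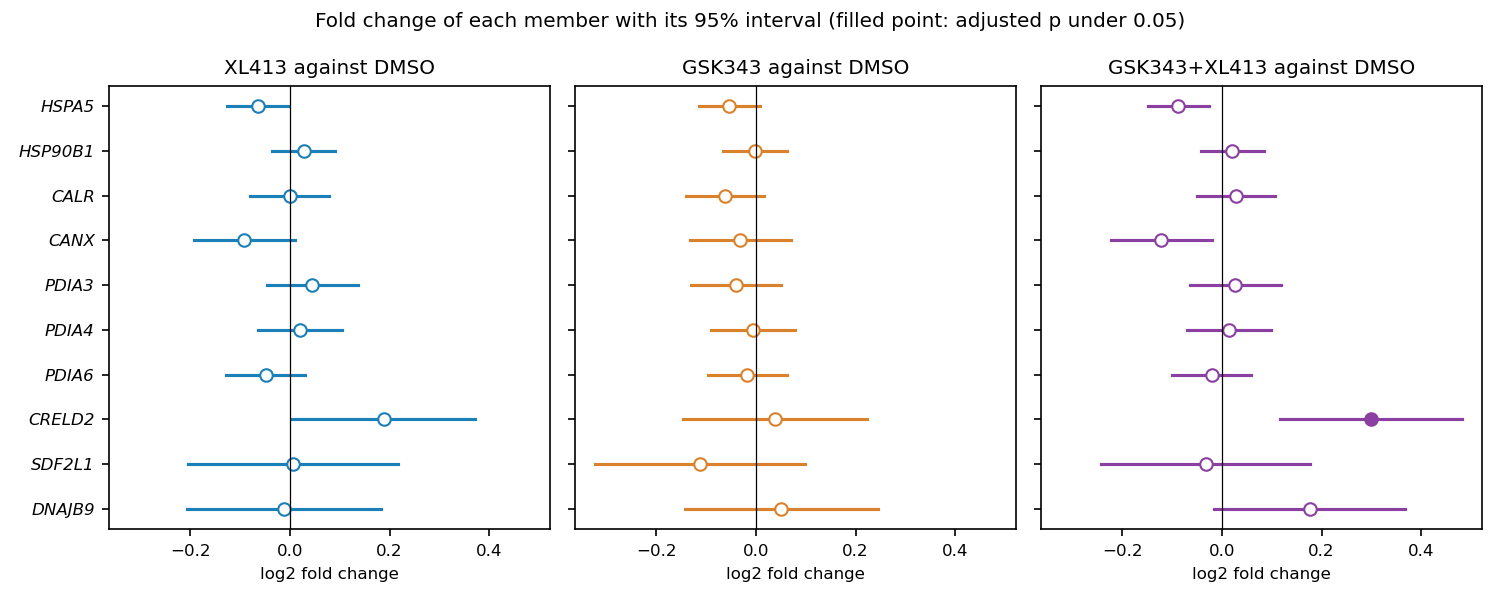
Log2 fold change (horizontal axis) of each of the 10 genes with its 95% interval for XL413, GSK343 and the combination against DMSO; a filled point marks an adjusted p under 0.05. CRELD2 with the combination, at 0.30, is the filled point, and the wider intervals belong to the genes of lowest count.

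The combination against DMSO was the comparison with the most calls among all genes, 13.9%, and here 1 of the 10 chaperone genes was called. CRELD2 was at 28.4, 33.7 and 27.2 CPM with both compounds, all above the 23.5 to 25.6 CPM of DMSO, and it rose by 0.30 ± 0.084 on the log2 scale, 1.23-fold (edgeR adjusted p = 0.0333). The highest of these libraries was GSK343+XL413 replicate 2. Without it the estimate was 0.20 and the call was lost (edgeR adjusted p = 0.0670). The call was also lost on omitting DMSO replicate 1, 2 or 3, XL413 replicate 1 or GSK343 replicate 2 (edgeR adjusted p up to 0.121) and in a fit of these 6 libraries alone (0.0935). The call held in 6 of the 12 refits, and the estimate stayed between 0.20 and 0.36.

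HSPA5 was the steadiest of the 10 genes between replicates, with a residual SD of 0.0155 on the log2 scale. Its combination libraries were at 836, 837 and 838 CPM, all under DMSO, with a log2 fold change of −0.087 ± 0.029, 0.941-fold. It did not pass the threshold (unadjusted p = 0.00900, edgeR adjusted p = 0.0586). It was called lower without GSK343+XL413 replicate 2 (edgeR adjusted p = 0.0435), without GSK343 replicate 3 (0.0472), and with DESeq2 (0.00941). With upper quartile scaling the estimate was −0.053 (edgeR adjusted p = 0.276). CANX was at 669, 604 and 672 CPM, also all under the DMSO libraries, with a log2 fold change of −0.12 ± 0.047 (edgeR adjusted p = 0.10). Its lowest library was GSK343+XL413 replicate 2, without which the estimate was −0.069.

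For HSP90B1 the combination libraries, at 988, 979 and 988 CPM, were all above those of DMSO, at 0.021 ± 0.030 on the log2 scale. That estimate turned to −0.039 with an offset for transcript length and GC content, so no direction can be given for it. Groups without overlap were thus seen for 4 of the 10 genes with the combination, 2 higher and 2 lower, where 33.7% of all tested genes had such groups. DNAJB9 was at 10.5, 12.7 and 11.9 CPM against 10.1, 10.9 and 10.1 CPM, with a log2 fold change of 0.18 ± 0.089 (edgeR adjusted p = 0.200). Its estimate was 0.12 without replicate 2 and 0.10 with the offset. CALR, at 1428, 1557 and 1427 CPM, and PDIA3, at 345, 382 and 351 CPM, each had 1 high library, replicate 2. Without it their estimates went from 0.028 to −0.010 and from 0.027 to −0.015, and with the offset they were −0.033 and 0.0018. PDIA4, at 195, 196 and 198 CPM against 193, 195 and 195 CPM, and PDIA6, at 393, 421 and 389 CPM, had estimates of 0.015 ± 0.039 and −0.021 ± 0.037, the latter 0.014 with upper quartile scaling, −0.052 without replicate 2 and −0.077 with the offset. SDF2L1 spread most, at 31.8, 35.1 and 26.6 CPM, at −0.032 ± 0.097 (0.0037 with upper quartile scaling). Without replicate 2 the SDF2L1 estimate was −0.12, and with the offset −0.17 (edgeR adjusted p = 0.0517). The widest 95% intervals were 0.846-fold and 1.40-fold. The median size of the log2 fold change was 0.030 for the 10 genes and 0.13 for all tested genes, at a median SE of 0.041 and 0.082. Whether the 10 genes changed less than genes of like precision was not tested.

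Adding GSK343 to XL413 (the combination against XL413) gave no call among the 10 genes, where 0.784% of all tested genes were called. HSPA5 had groups that did not overlap, at −0.023 ± 0.029 on the log2 scale (−0.00076 with upper quartile scaling), 1 of 10 genes where 19.9% of all tested genes had such groups. DNAJB9 had the largest estimate, 0.19 ± 0.089 (edgeR adjusted p = 0.346), which was 0.12 both without GSK343+XL413 replicate 2 and with the offset. Adding XL413 to GSK343 (the combination against GSK343) also gave 0 calls, where 0.984% of all tested genes were called. Of the 10 genes 2 had an unadjusted p under 0.05, where 20.4% of all tested genes had. CRELD2 was at 26.9, 25.3 and 22.4 CPM with GSK343 alone, all under the combination, a log2 fold change of 0.26 ± 0.084 (edgeR adjusted p = 0.130). Without GSK343+XL413 replicate 2 that estimate was 0.16 (edgeR adjusted p = 0.281), and with the offset for length and GC content also 0.16 (0.0805). CALR differed by 0.090 ± 0.037 (edgeR adjusted p = 0.197), by 0.048 without GSK343+XL413 replicate 2 and by 0.016 with the offset. With HSPA5, 3 of 10 genes had groups without overlap here, where 21.3% of all tested genes had.

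The interaction, the GSK343 effect in the presence of XL413 minus the GSK343 effect in its absence, tests whether the compounds add up on the log scale. No gene of the 10 was called, and 0% of all tested genes were. With edgeR 413 of all tested genes (2.67%) had an unadjusted p under 0.05, and none of the 10 did. At that share, finding none among 10 genes says little. DESeq2 called 2 genes, none of the 10. The estimates of 9 of the 10 genes were above 0, with a median of 0.038 and a range from −0.0048 for HSP90B1 to 0.14 for DNAJB9. Over all tested genes 8017 of 15443 were above 0. Of the cytosolic and mitochondrial chaperones 20 of 21 were, with a median of 0.042, so this lean was not particular to the 10 genes. The widest 95% intervals, 0.856-fold to 1.33-fold, do not show that the effects add exactly.

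Group means of HSPA5 ran from DMSO at 889 ± 6.51 CPM (SD, n = 3), GSK343 at 857 ± 16.2, and XL413 at 850.2 ± 6.30 to the combination at 837 ± 1.21. The GSK343 and XL413 libraries overlap and were not compared by a test, and none of the comparisons made between the groups passed edgeR's test for HSPA5, so this order is a description. For CRELD2 the order was DMSO at 24.2 ± 1.18 CPM, GSK343 at 24.9 ± 2.29, XL413 at 27.6 ± 1.17 and the combination at 29.8 ± 3.48. GSK343 overlaps both DMSO and XL413, and XL413 overlaps the combination. Apart from CRELD2 with the combination against DMSO, no comparison passed the test for any of the 10 genes.

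Transcript length moved with these values. In GSK343+XL413 replicate 2 the deviation from the other 2 libraries went down with length (Spearman's rho −0.640, against −0.447 to 0.564 in the other libraries). These values cover the 11794 genes that had a known length and passed a floor on mean level. Among the 10 genes, SDF2L1 (865 nt) and CRELD2 (1577 nt) were 0.27 and 0.28 above the other combination libraries on the log2 scale. CALR (1903 nt) was 0.13 above them, and CANX (4260 nt), the longest, was 0.15 below. HSPA5 (3908 nt), HSP90B1 (2858 nt) and PDIA4 (2903 nt) deviated by at most 0.014, and PDIA3 (3727 nt) was 0.14 above. Log2 fold changes of the combination against DMSO had a rho with length of −0.325 over the 14488 tested genes with a length and −0.479 over the 10. For the interaction these were −0.293 and −0.673. With an offset for length and GC content, added after the data were seen, 3 of the 10 genes were called with the combination. In that fit, limited to the 14488 tested genes with a length, 2813 genes in all were called. Without the offset 2152 of 15443 were. CRELD2 was at 0.23 (edgeR adjusted p = 0.00656), HSPA5 at −0.098 (0.00995) and CANX at −0.14 (0.00928). The part of length in the other differences was not tested.

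**Figure D3:**
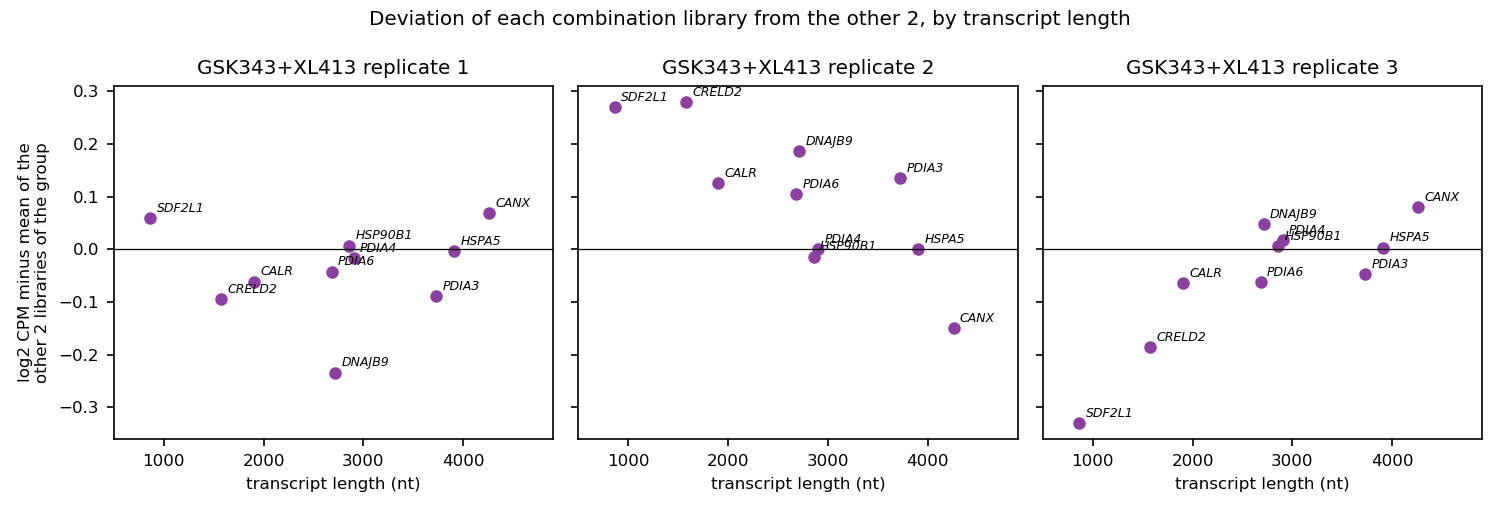
Deviation of each combination library from the mean of the other 2 libraries of its group (vertical axis, log2 CPM) against transcript length in nt (horizontal axis) for the 10 genes. In replicate 2, SDF2L1 and CRELD2 lie 0.27 and 0.28 above 0 and CANX 0.15 below.

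The genes did not move as 1 block across libraries. Over the 12 libraries log2 CPM of CALR and PDIA3 had a Pearson correlation of 0.82 (0.66 without GSK343+XL413 replicate 2), and that of CANX and CRELD2 was −0.93 (−0.85 without it). HSPA5 and HSP90B1, the ER forms of Hsp70 and Hsp90, were at −0.26. These correlations are descriptions over libraries that share the cell line, the scaling and the length trend. The mean of the 10 genes, each centred and scaled over the libraries, was highest in GSK343+XL413 replicate 2 (0.90) and lowest in GSK343 replicate 3 (−0.68), and lay between −0.26 and 0.28 in the other libraries. Of 6090 other genes with a mean of at least 5 log2 CPM, those most like that mean over the 12 libraries were DCUN1D5 (r = 0.97), SRSF2 (0.92), SRSF7 (0.92), TALDO1 (0.91), GLRX5 (0.91), NDUFV1 (0.91), CDC123 (0.91) and PFN1 (0.91). Without GSK343+XL413 replicate 2 these values were between 0.79 and 0.93. Those most like HSPA5 were TCF3 (0.96), RHBDF1 (0.94) and SSRP1 (0.93), which with that library left out stayed between 0.92 and 0.95.

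The other genes of ER folding and of the stress response were taken from 9 lists by function, with 176 tested genes in all. Beside the counts of each list below stand the shares of all tested genes called against DMSO. These were 13.9% with the combination, 0.427% with XL413 and 1.17% with GSK343. Of those named below as changed with the combination, ERO1B, PRKCSH, UBE2G2, ASNS, ATF5, CEBPB, HSPA1A, HSPA1B, DNAJB1 and FRG2 were also called in a fit of the 6 libraries alone, and the others were not. Omitting GSK343+XL413 replicate 2, which enters the shared spread, gave at most 2 calls with a single compound in each list given below with 0, except the list of PERK and ATF4.

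Among the 25 partners of BiP and further folding factors, no gene was called with either single compound. With the combination SIL1, the nucleotide exchange factor of BiP, rose by 0.21 ± 0.055, from 22.6, 24.2 and 23.0 CPM to 27.2, 27.9 and 25.8 CPM (edgeR adjusted p = 0.0242). SEC63, a J-protein of the translocation channel, fell by 0.15 ± 0.044 (0.0383). SIL1 was lost on omitting any DMSO library or GSK343+XL413 replicate 1 (at most 0.0882). SEC63 was lost on omitting GSK343+XL413 replicate 2, GSK343 replicate 2, XL413 replicate 2 or 3, or any DMSO library (up to 0.118), and with upper quartile scaling (0.0773). HYOU1, a large Hsp70 relative and the list's most abundant gene, was at −0.14 ± 0.054 (edgeR adjusted p = 0.0988). Its combination libraries were at 307, 260 and 307 CPM, the lowest being GSK343+XL413 replicate 2, against 324, 320 and 320 CPM with DMSO.

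Oxidative folding gave the clearest single change of the ER lists. ERO1B, an oxidase that recharges the disulfide isomerases, was at 30.4, 31.2 and 30.9 CPM with DMSO, 36.2, 32.03 and 34.4 CPM with XL413, 39.4, 38.7 and 38.9 CPM with GSK343 and 44.7, 43.3 and 43.3 CPM with both. The GSK343 and combination libraries do not overlap with each other or with DMSO. ERO1B rose by 0.34 ± 0.047 with GSK343 (edgeR adjusted p = 0.00402) and by 0.50 ± 0.047 with the combination (0.000103), calls that held in every refit, and the XL413 value was 0.15 ± 0.048 (0.184). The promoter window of ERO1B also holds an ERSE. Of the 16 tested genes of this list, 3 rose and 1 fell with the combination.

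TXNDC12, a small thioredoxin-like protein of the lumen, rose by 0.21 ± 0.044 with the combination (edgeR adjusted p = 0.00965), which was lost on omitting DMSO replicate 2 (0.0512). ERP44, chosen after its value was seen, rose by 0.16 ± 0.046, which was lost on omitting any DMSO library, XL413 replicate 2 or GSK343+XL413 replicate 1 or 3 (at most 0.125). P4HB, the archetype of the isomerase family, fell by 0.13 ± 0.031, from 662, 654 and 648 CPM to 597, 603 and 599.5 CPM (edgeR adjusted p = 0.0201), which was lost on omitting DMSO replicate 1 or 2 (up to 0.0728) and with upper quartile scaling (0.0934). The isomerases PDIA3, PDIA4 and PDIA6 did not pass the test in any of the comparisons.

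Of 8 prolyl isomerases 1 rose with the combination, PPIC, by 0.26 ± 0.077. This held in 4 of the 12 refits and was lost on omitting DMSO replicate 2 or 3, any XL413 library, GSK343 replicate 2 or a GSK343+XL413 library other than replicate 1 (edgeR adjusted p up to 0.174), and with the offset for length and GC content (0.281). PPIB, the most abundant, was at 0.097 ± 0.058. Of 7 genes of glycan trimming and glucose tagging, the steps that feed CALR and CANX, PRKCSH fell and 6 were not called. PRKCSH, the beta subunit of glucosidase II, was at 814, 822 and 809 CPM with DMSO and 699.5, 712 and 692 CPM with the combination. It fell by 0.22 ± 0.031 (edgeR adjusted p = 0.00124), which held in all 12 refits. With GSK343 alone it fell by 0.18 ± 0.031 (0.0139), which was lost on omitting any DMSO library or GSK343 replicate 1 or 3 (up to 0.107).

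In ER-associated degradation, which removes proteins that fail to fold, 2 of 24 genes rose and 3 fell with the combination, and 0 were called with either single compound. UBE2G2, a ubiquitin-conjugating enzyme, fell by 0.20 ± 0.039 (edgeR adjusted p = 0.00583) and AUP1, which recruits it, by 0.21 ± 0.045 (0.00979), and both held in all 12 refits. ERLEC1, a lectin of the lumen, rose by 0.17 ± 0.040, lost on omitting DMSO replicate 2 or 3 (up to 0.0727) and with the offset (0.118). VCP, the ATPase that extracts substrates, fell by 0.11 ± 0.029, lost on omitting any DMSO library (up to 0.102), with upper quartile scaling (0.126) and with the offset (0.0876). UBE2J1, chosen after its value was seen, rose by 0.17, a call that held in 1 of the 12 refits, that without GSK343+XL413 replicate 2 (at most 0.181 elsewhere). HERPUD1, a known target of the stress sensors and chosen for that after its value was seen, was at −0.0072 ± 0.062 with the combination.

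The sensors and transcription factors gave 1 call of 18 genes, CREB3L3, which lay under 1 CPM in every library and rose by 1.6 ± 0.46 with the combination. That call was lost on omitting any DMSO library or GSK343+XL413 replicate 1 (at most 0.135 by edgeR's adjusted p). TMBIM6, the most abundant gene of the list and an ER membrane protein that restrains IRE1, was at −0.025 ± 0.030 with the combination. XBP1, itself a gene with an ERSE and chosen after its value was seen, was at 0.088 ± 0.067 with XL413, −0.17 ± 0.068 with GSK343 and 0.099 ± 0.067 with the combination, none called. Gene counts do not separate spliced from unspliced XBP1 mRNA.

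The arm of PERK and ATF4 did show calls. With the combination 2 of its 18 genes rose and 8 fell. ASNS, the asparagine synthetase, was at 155, 149 and 152 CPM with DMSO and 118, 128 and 116 CPM with both compounds, and fell by 0.34 ± 0.041 (edgeR adjusted p = 0.000617). ATF5 fell by 0.20 ± 0.036 (0.00408), and both calls held in all 12 refits. ATF4 itself fell by 0.19 ± 0.044 (0.0135), which was lost on omitting DMSO replicate 1 (0.0573). The 2 genes that rose, chosen after their values were seen, were CEBPB, a transcription factor, by 0.34, lost on omitting DMSO replicate 1 (up to 0.0655), and STC2, a secreted glycoprotein hormone, by 0.25, lost on omitting DMSO replicate 2 or 3 (up to 0.0561).

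The count of genes that fell in that arm with the combination was between 3 and 8 over the refits, 8 on omitting GSK343+XL413 replicate 2, and 4 with upper quartile scaling. With GSK343 alone 1 of the 18 rose and 2 fell. PPP1R15A, the phosphatase subunit that reverses PERK signalling, rose by 0.19 ± 0.043, which held in 2 of the 12 refits, those without GSK343+XL413 replicate 1 or 2 (at most 0.183 elsewhere by edgeR's adjusted p). ASNS fell by 0.25 ± 0.041, lost on omitting any DMSO library or GSK343 replicate 2 or 3 (up to 0.0730). TRIB3, also chosen with its value known, fell by 0.26, which held only without GSK343+XL413 replicate 2 or 3 (up to 0.157 otherwise). With XL413 alone 0 of the 18 were called, and 7 were without GSK343+XL413 replicate 2, 1 higher and 6 lower.

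The translocon, signal peptidase and oligosaccharyltransferase list gave 3 rises and 1 fall among 30 genes with the combination, near the 13.9% of all tested genes. With the single compounds it gave 0 calls. OSTC, a subunit of the glycosyltransferase, rose by 0.23 ± 0.061, lost on omitting any DMSO library (edgeR adjusted p up to 0.102). SRP54, which binds signal peptides, rose by 0.17 ± 0.046, and RPN1, another subunit of the transferase, fell by 0.11 ± 0.033. Both calls were lost on omitting any DMSO library and without others: XL413 replicate 1 or 2 or GSK343+XL413 replicate 1 or 3 for SRP54 (up to 0.120), and XL413 replicate 3, GSK343 replicate 1 or GSK343+XL413 replicate 1 for RPN1 (up to 0.142). DAD1, chosen after its value was seen, rose by 0.21, which held in 4 of the 12 refits and was lost among others without GSK343+XL413 replicate 2 (up to 0.154). With the offset OSTC (0.695), SRP54 (0.343) and DAD1 (0.544) were not called, and with upper quartile scaling 7 genes of the list rose and 0 fell. DDOST, the most abundant gene, was at 0.0017 ± 0.038. Of 31 genes of traffic from the ER to the Golgi, SEC16A, a scaffold of the exit sites, fell by 0.37 ± 0.095, lost on omitting any DMSO library (up to 0.0827), and 30 were not called. The combination libraries of SEC16A were at 109, 79.8 and 109 CPM, the lowest being GSK343+XL413 replicate 2. Its estimate lay between −0.45 and −0.23 over the refits. COPA, the most abundant, was at −0.055 ± 0.079, with 1 low library, GSK343+XL413 replicate 2, at 321 CPM against 417 and 427 CPM in the others.

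**Figure D4:**
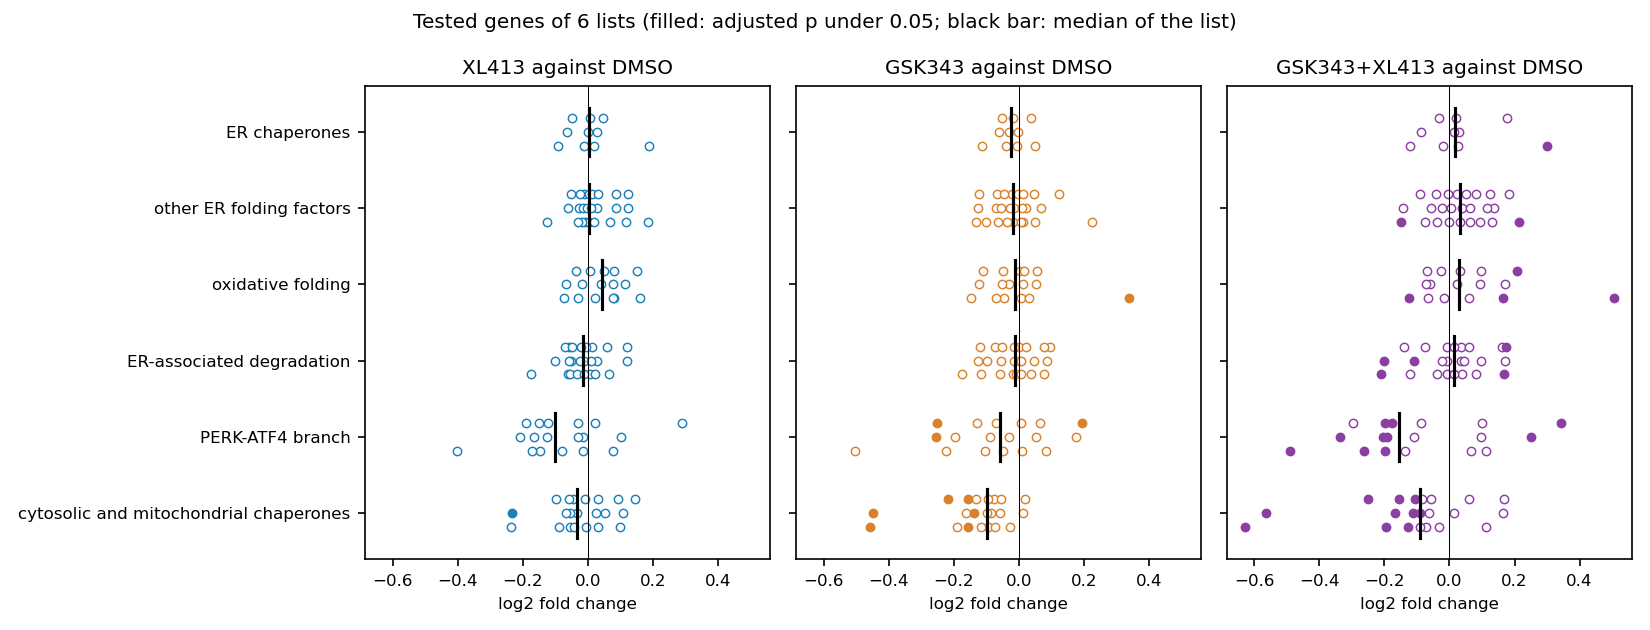
Log2 fold changes (horizontal axis) of tested genes in 6 lists for XL413, GSK343 and the combination against DMSO; filled points have an adjusted p under 0.05 and the black bar is the median of the list. The bar of the ER chaperones lies at 0.0031, −0.024 and 0.018, and that of the cytosolic and mitochondrial chaperones at −0.034, −0.097 and −0.091.

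Chaperones outside the ER are given beside these as the list most like them in function. Of its 21 genes 1 fell with XL413, 6 with GSK343 and 10 with the combination, and 0 rose in any of the 3 comparisons. Their median log2 fold changes were −0.034, −0.097 and −0.091, where those of the 10 ER genes were 0.0031, −0.024 and 0.018 and those of all tested genes −0.0068, 0.0011 and 0.0060. HSPA1A, the stress-induced Hsp70 of the cytosol, was at 146, 143 and 140.3 CPM with DMSO, 121, 116 and 129 CPM with XL413, 105, 104 and 106 CPM with GSK343 and 93.5, 98.2 and 98.8 CPM with both. It fell by 0.45 ± 0.045 with GSK343 (edgeR adjusted p = 0.000298) and by 0.56 ± 0.045 with the combination (3.08e-05), and both held in all 12 refits. The fall of 0.23 ± 0.045 with XL413 held in 2 of them, those lacking XL413 replicate 3 or GSK343+XL413 replicate 2 (at most 0.257 otherwise by edgeR's adjusted p), and was lost with upper quartile scaling (0.0664).

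HSPA1B, a near-identical copy whose reads cannot be divided with certainty, fell by 0.63 ± 0.061 with the combination (edgeR adjusted p = 0.000129). DNAJB1, the J-protein that serves these Hsp70s, fell by 0.25 ± 0.035 (0.00124), and both held in all 12 refits. HSP90AA1, the cytosolic counterpart of HSP90B1 and the list's most abundant gene, fell by 0.10 ± 0.028, lost on omitting any DMSO library (up to 0.0722) and with upper quartile scaling (0.142). Over the refits 5 to 11 of the 21 genes fell with the combination and 2 to 10 with GSK343, and on omitting GSK343+XL413 replicate 2 the counts were 11 and 10. With upper quartile scaling they were 5 and 3. In those same fits the count of the 10 ER chaperones called with GSK343 was 0 throughout. The difference between the lists was not tested.

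The element in the promoters did not go with a shared direction. The 6 ER chaperone genes with an ERSE had a median log2 fold change of −0.024 with XL413, −0.024 with GSK343 and 0.00025 with the combination, ranging in the last from −0.12 for CANX to 0.30 for CRELD2. Outside the 10 genes 19 others had an ERSE in a window, of which 15 were in the table and 11 tested. With the combination ERO1B and FRG2 rose and ALG12 fell, the latter genes chosen after their values were seen. FRG2 had a mean of −2.2 log2 CPM and close copies, and its call was lost on omitting DMSO replicate 1 or 2 (edgeR adjusted p up to 0.0698). ALG12, a mannosyltransferase of glycan assembly, was at −0.30 ± 0.082, lost on omitting DMSO replicate 1 or 3 or GSK343+XL413 replicate 3 (up to 0.115) and with the offset (0.119).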

How the data were processed

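The 12 A375 libraries, 4 groups of 3, were assigned by the labels. The authors deposited RSEM expected counts per gene, and the submitters' processing notes name Bowtie2 2.1.0, RSEM 1.2.15 and hg38. Not given in the sources used here are the gene annotation, strand setting, trimming and filters, so overlapping genes and close copies are uncertain.

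Expected counts were rounded, and edgeR 4.0.16 was run under R 4.3.3. The filter was filterByExpr (minimum count 10, minimum total 15), which removed 11032, and libraries were scaled by TMM. All 12 libraries entered 1 quasi-likelihood fit with group as the factor (8 residual degrees of freedom), so all comparisons share 1 estimate of the spread. P-values are two-sided and were adjusted by Benjamini-Hochberg over 15443 genes. SE is the size of the fold change (log2) over the square root of F, and intervals are 95%. P-values judge a difference between groups against the spread between replicate libraries of the same cell line, as estimated in that shared fit. The test was also run on simulated data with known changes.

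The 10 genes and all lists were chosen with earlier results of these data known. Named genes are the 10, up to 3 called genes of smallest p and the most abundant gene of each list, and the 8 and 3 genes of highest correlation; others are said to be chosen later. SELENOF and MARCH6 of the lists were not matched in the table. Lengths are those of the longest basic transcript of GENCODE 29 on GRCh38, matched by name for 93.8% of tested genes. The fit with an offset for length and GC content was limited to these 14488 genes. Promoter windows are from RefSeq. CPM use effective library sizes, and log2 CPM a prior count of 2.

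Alternatives were RLE size factors, upper quartile scaling, no filter, at least 5 CPM in 3 libraries, limma-voom of limma 3.58.1, DESeq2 1.42.0, only the groups compared, the replicate number as a term, leaving out each library and, added after seeing the data, an offset for length and GC content.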

Additional observations from a re-analysis of the deposited data

How the results depend on the processing

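Counts of called ER chaperone genes were the same as reported under RLE size factors, upper quartile scaling, no filter, at least 5 CPM in 3 libraries and limma-voom in all 6 comparisons. With the combination against DMSO the count was 1 in the main analysis, 2 with DESeq2, 3 with the offset for transcript length and GC content, and 0 with only the groups compared, and between 0 and 2 when 1 library was left out. With XL413 against DMSO it was 0, and 1 with only the groups compared. The estimate for HSP90B1 with the combination turned to −0.039 with the offset. Counts over all genes moved more. With XL413 the 66 calls became 249 with DESeq2, 496 with the offset, 1394 with only the groups compared, and 16 to 756 without 1 library. With GSK343 the 180 became 359, 459 and 422, and 37 to 958. With the combination the 2152 became 2352, 2813 and 657, and 850 to 2610. Against XL413 the 121 became 307, 434 and 18, and 40 to 252, and against GSK343 the 152 became 563, 686 and 0, and 35 to 348. The interaction had 0, 2 with DESeq2 and 1 with the offset. The 756 with XL413 and the 958 with GSK343 came from the fits without GSK343+XL413 replicate 2. Fits of only the groups compared also leave that library out in these 2 comparisons. The cause of these moves was not tested. The replicate number as a block left the count of ER chaperones called at 1 with the combination and 0 elsewhere and gave 108 genes with GSK343. The labels do not say whether the numbers mark a shared batch. Same-numbered libraries deviated with correlations from −0.415 to 0.340, 4 of 18 over 0.1. For libraries of different number these ran from −0.332 to 0.313, 13 of 36 over 0.1. Such deviations are centred within each group of 3 and hold the length trend, so they cannot decide whether the numbers pair the samples. DNAJB9, with 315 counts in its lowest library, CRELD2 and SDF2L1 had wider intervals than the abundant genes, and the shares of depth and of spread between replicates in this were not tested.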
